A study of Macaca mulatta with 15 samples.

Results

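The common gamma chain family of cytokine receptors was described in sorted T cells of rhesus macaques through 7 receptor genes: IL2RG, IL2RB, IL7R, IL4R, IL21R, IL2RA and IL15RA. The members were taken by gene symbol from the deposited count table, which lists 34884 genes, and each symbol matched 1 gene. All 7 passed the filter on low counts and were among the 14814 genes tested. The data are 15 RNA-seq libraries of CD4 memory, CD4 naive, CD8 memory and CD8 naive T cells from the blood of 2 healthy animals, RhM22 (8 libraries) and RhDBCb (7 libraries). Libraries labelled after treatment came from animals given subcutaneous 2-hydroxypropyl-beta-cyclodextrin, a sugar ring that binds cholesterol, at 1 ml/kg/day in a solution of 15% (w/w), for up to 120 days. Libraries labelled before treatment came from the same animals with no treatment. No gene was altered and no untreated animal was sampled over the same period, so the effect of the compound and of passing time cannot be told apart. Each animal was sampled once before and once after, which gives 4 draws, 7 before-and-after pairs and 8 subset-by-time groups. For CD8 naive cells after treatment there is the library of RhM22, while that of RhDBCb was not analysed here. A group therefore holds 1 or 2 libraries, and p-values measure the spread among these libraries rather than among many animals.

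The receptors of interleukins 2, 4, 7, 9, 15 and 21 are built around one shared subunit, the common gamma chain, which IL2RG encodes. The gamma chain pairs with a subunit that gives the receptor its ligand: IL7R for interleukin 7, IL4R for interleukin 4, IL21R for interleukin 21, and IL2RB for both interleukin 2 and interleukin 15. IL2RA and IL15RA encode alpha chains that raise the affinity for interleukin 2 and interleukin 15 and signal little by themselves. Signals run through the kinases JAK1 and JAK3 to STAT factors, and T cells depend on them for survival at rest, for growth after antigen and for the upkeep of memory.

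Total counts ranged from 44414963 to 71787211 per library, and 11506 to 12577 genes had at least 10 counts, with the before libraries of RhDBCb spanning 11506 to 12277. The helper lineage co-receptor gene CD4 was found at 207 to 549 CPM (counts scaled to library size by TMM) in CD4 libraries and at most 1.68 CPM in CD8 libraries. The cytotoxic lineage gene CD8A was found at 665 to 861 CPM in CD8 libraries and at most 3.93 CPM in CD4 libraries. Memory markers were called higher in memory than in naive cells for 5 of 7 genes in the CD4 lineage and 6 of 7 in the CD8 lineage. Over all genes tested the shares called higher were 3.89% and 5.31%. Summed marker levels of other blood cells ranged over the libraries from 3.33 to 99.7 CPM for platelets, from 3.66 to 44.8 CPM for monocytes and dendritic cells, from 16.9 to 113 CPM for B cells, from 0.993 to 10.3 CPM for red cells and from 0.117 to 34.7 CPM for gamma-delta T cells. The CD8 memory library of RhDBCb before treatment stood apart, with the proliferation gene MKI67 at 112 CPM and S100A4 at 2213 CPM, both the highest of the series. In bulk RNA of this kind, fewer cells of a type and less RNA per cell cannot be told apart.

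All 7 receptors were measured in all 15 libraries, at levels given here per gene and not compared between genes, because CPM grows with transcript length. IL2RG (ENSMMUG00000017795), the shared chain, was the steadiest, at a lowest, median and highest level of 633, 881 and 1129 CPM. IL2RB (ENSMMUG00000005417) ran from 144 through a median of 962 to 1882 CPM and IL21R (ENSMMUG00000008252) from 19.2 through 63.1 to 124 CPM. In both, the lowest library was CD4 naive cells of RhDBCb before treatment. IL7R (ENSMMUG00000001676) lay at 172, 265 and 469 CPM, and IL4R (ENSMMUG00000004666) at 176, 583 and 1087 CPM. The alpha chains varied most between subsets: IL2RA (ENSMMUG00000015151) lay at 3.50, 26.8 and 153 CPM and IL15RA (ENSMMUG00000015149) at 2.04, 6.53 and 16.4 CPM. IL15RA was the thinnest measurement, with 98 to 994 expected counts per library. The expected counts of IL2RG were fractional in 15 of 15 libraries, those of the other receptors in none. IL2RG overlaps MED12 in the RefSeq gene table, which is of another assembly than the builds the submitters name. Whether these genes overlap in those builds was not checked. The library kit does not mark strand, so reads could be shared where these genes overlap.

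**Figure D1:**
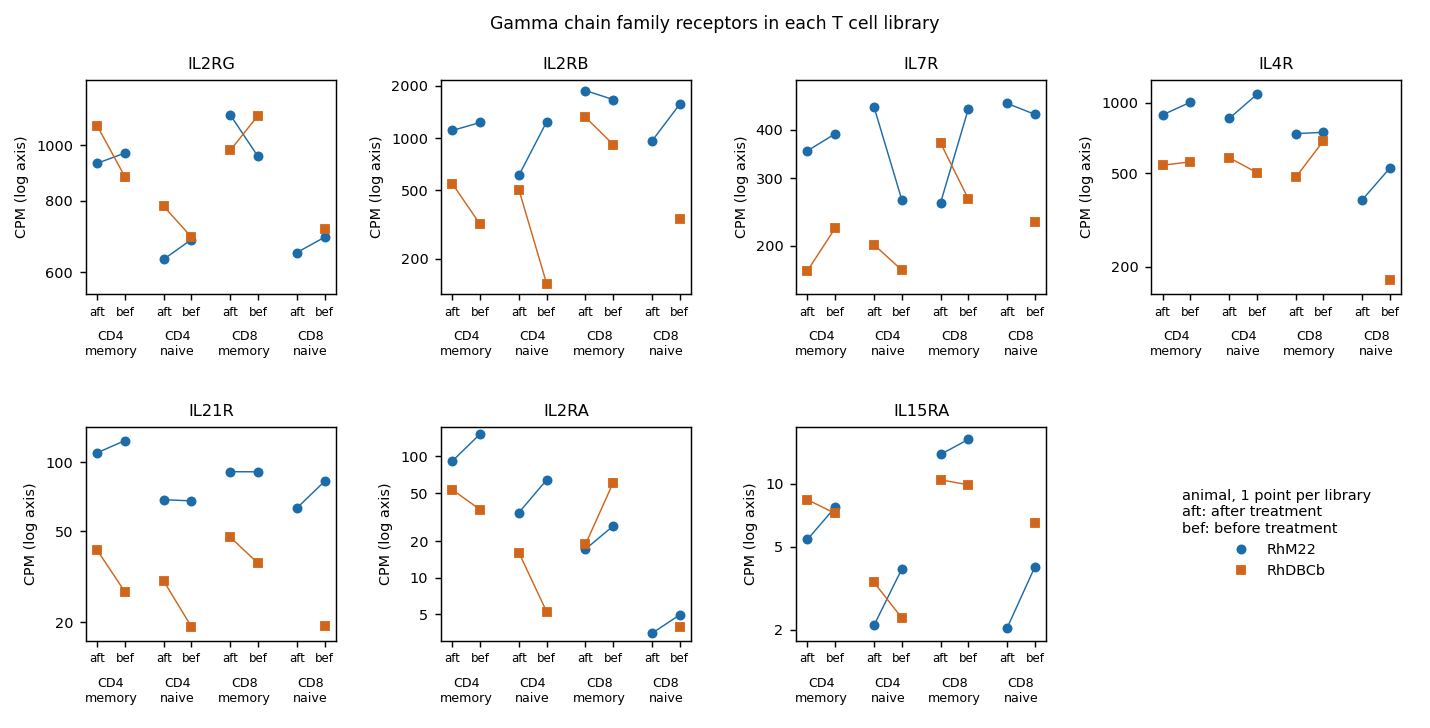
Level of each receptor gene in CPM (log axis) in every library, by subset, with after-treatment libraries (aft) left of before-treatment libraries (bef) and lines joining the pair of 1 animal. The RhM22 libraries (circles) lie above those of RhDBCb (squares) for IL21R throughout, and the memory subsets lie above the naive subsets of the same lineage for IL2RG and IL15RA.

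The first set of comparisons asked how the receptors differ between memory and naive T cells. In CD8 cells, 4 of 7 receptors were higher in memory cells, IL2RG, IL4R, IL2RA and IL15RA, against 5.31% of all genes tested that were called higher, 3.1% lower and 8.4% in either direction. In CD4 cells, 1 of 7 was higher in memory cells, IL15RA, against 3.89% of all genes higher, 1.71% lower and 5.6% in either direction. No receptor was lower in memory cells of either lineage. The median log2 fold change of the 7 receptors was 1.11 in CD8 cells and 0.47 in CD4 cells, beside 0.05 and -0.02 over all genes tested.

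IL15RA, which binds interleukin 15 for presentation to the shared chains, was called higher in memory cells of both lineages. In CD8 memory cells it lay at 13.9 and 16.4 CPM in RhM22 after and before treatment and at 10.5 and 9.91 CPM in RhDBCb after and before. CD8 naive cells held 2.04 and 4.01 CPM in RhM22 after and before treatment and 6.53 CPM in RhDBCb before. The memory and naive libraries did not overlap, and the log2 fold change was 1.95 (edgeR SE 0.39, adjusted p = 0.0102). CD4 memory cells held 5.42 and 7.74 CPM in RhM22 after and before treatment and 8.40 and 7.23 CPM in RhDBCb. CD4 naive cells held 2.10 and 3.91 CPM in RhM22 and 3.37 and 2.28 CPM in RhDBCb, in the same order. Here too every memory library lay above every naive one, with a log2 fold change of 1.30 (SE 0.32, edgeR adjusted p = 0.0367). The CD8 call held in 14 of 14 fits that left out 1 library. The CD4 call held in 9 of 15 and was lost without any of the 4 CD4 libraries of RhDBCb, at an adjusted p of 0.141 without CD4 naive before, 0.0807 without CD4 memory before, 0.0565 without CD4 naive after and 0.163 without CD4 memory after. It was also lost without the CD4 memory before library (0.0984) or the CD4 naive after library (0.131) of RhM22.

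IL2RA, the alpha chain of the high-affinity interleukin 2 receptor and a marker of activated and regulatory T cells, showed the widest difference between CD8 subsets. It lay at 17.2 and 26.8 CPM in CD8 memory cells of RhM22 after and before treatment, and at 18.8 and 60.8 CPM in those of RhDBCb. CD8 naive cells held 3.50 and 4.95 CPM in RhM22 after and before treatment and 3.96 CPM in RhDBCb before. No naive library reached a memory library, and the log2 fold change was 3.20 (SE 0.75, edgeR adjusted p = 0.0225). The highest value came from the RhDBCb before library that stood apart, and without it the log2 fold change was 2.52 (adjusted p = 0.0476). In CD4 memory cells IL2RA lay at 91.7 and 153 CPM in RhM22 after and before treatment and at 53.2 and 36.6 CPM in RhDBCb, and in CD4 naive cells at 34.5 and 64.1 CPM in RhM22 and at 16.1 and 5.27 CPM in RhDBCb. Memory cells were higher in 4 of 4 draws, by 2.39-fold to 6.91-fold, yet the ranges overlapped across animals and the difference was not called (log2 fold change 1.57, SE 0.56, edgeR adjusted p = 0.145). Without the RhM22 CD4 naive before library it was called, at a log2 fold change of 2.66 (adjusted p = 0.0167), and without the before libraries of RhDBCb at 1.42 (adjusted p = 0.0389).

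Regulatory T cells carry IL2RA at rest. Of 7 listed markers of these cells, 2 were called higher in CD4 memory cells and none lower: FOXP3, the transcription factor of regulatory T cells, at 8.29 to 34.4 CPM in CD4 memory libraries and 1.49 to 13.6 CPM in CD4 naive libraries, and TNFRSF18. Their summed level was 126 to 153 CPM in CD4 memory cells and 75.5 to 86.6 CPM in CD4 naive cells. In CD8 cells FOXP3 and TNFRSF18 were called higher in memory cells, IKZF4 lower, and the sum was 32.1 to 96.7 CPM in memory and 31.4 to 54.3 CPM in naive cells. The activation list gave 2 of 7 genes higher in CD4 memory cells, MKI67 and TOP2A. In CD8 memory cells 4 were higher, TOP2A, CD40LG and MKI67 among them, and 1 was lower, CD38. Beside both lists, 3.89% of all genes were called higher and 1.71% lower in CD4 memory cells. In CD8 memory cells the shares were 5.31% and 3.1%. The part of regulatory or activated cells in the IL2RA values was not tested.

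The shared chain IL2RG stood at 1129 and 956 CPM in CD8 memory cells of RhM22 after and before treatment, and at 980.0 and 1126 CPM in those of RhDBCb. CD8 naive cells held 650 and 691 CPM in RhM22 after and before treatment and 715 CPM in RhDBCb before. All memory libraries exceeded all naive ones, at a log2 fold change of 0.62 (SE 0.17, edgeR adjusted p = 0.0432). In 13 of 14 fits without 1 library the call was lost, with a fold change between 0.52 and 0.67 and an adjusted p between 0.0516 and 0.136. It held only without the RhDBCb CD8 memory after library (0.0306), and was also lost with no filter on low counts (0.0607). CD4 memory cells held 930.0 and 969 CPM in RhM22 after and before treatment and 1081 and 881 CPM in RhDBCb, against 633 and 685 CPM in CD4 naive cells of RhM22 and 782 and 692 CPM in those of RhDBCb. Memory was higher in 4 of 4 draws and the libraries did not overlap, but the log2 fold change of 0.47 was not called by edgeR (SE 0.15, adjusted p = 0.0902). DESeq2 called it (adjusted p = 0.0166).

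IL4R, the interleukin 4 chain, differed between memory and naive cells of the CD8 lineage. CD8 memory cells held 739 and 749 CPM in RhM22 after and before treatment and 481 and 689 CPM in RhDBCb, against 386 and 528 CPM in CD8 naive cells of RhM22 and 176 CPM in those of RhDBCb before. In 3 of 3 draws memory was higher, by 1.42-fold to 3.91-fold, with a log2 fold change of 1.12 (SE 0.25, edgeR adjusted p = 0.0173). The call was lost without the RhDBCb CD8 naive before library, which had the lowest value (adjusted p = 0.0613), and without all before libraries of that animal (0.0784). In CD4 cells IL4R showed no such gap, at 888 and 1005 CPM in memory cells of RhM22 after and before treatment and 542 and 560 CPM in those of RhDBCb. CD4 naive cells held 857 and 1087 CPM in RhM22 and 583 and 504 CPM in RhDBCb, and memory was higher in 2 of 4 draws. The memory-minus-naive difference in CD8 cells less that in CD4 cells was 1.13 on the log2 scale, which was not called (SE 0.32, edgeR adjusted p = 0.605). Over all 14814 genes that difference was called in 0.0203%, and none of the 7 receptors was among them.

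IL2RB, IL21R and IL7R were not called between memory and naive cells. IL2RB, the chain shared by the interleukin 2 and 15 receptors, lay at 1882 and 1670 CPM in CD8 memory cells of RhM22 after and before treatment and at 1321 and 918 CPM in those of RhDBCb. CD8 naive cells held 962 and 1568 CPM in RhM22 after and before treatment and 340 CPM in RhDBCb before. Memory was higher in 3 of 3 draws, but by 1.06-fold to 2.70-fold, with a log2 fold change of 1.11 (SE 0.47, edgeR adjusted p = 0.179). IL21R was higher in memory cells in 3 of 3 CD8 draws and 4 of 4 CD4 draws, by 1.10-fold to 1.87-fold and by 1.36-fold to 1.83-fold, and neither difference was called by edgeR (log2 fold changes 0.69 and 0.64, adjusted p = 0.133 and 0.129). DESeq2 called the CD4 difference (adjusted p = 0.0484). IL7R, whose product binds interleukin 7 and keeps resting T cells alive, was higher in memory cells in 2 of 3 CD8 draws and 2 of 4 CD4 draws, so the subsets did not separate.

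Natural killer cells carry IL2RB and IL15RA and could be present in sorted T cells. Of 7 listed markers of these cells, 3 were called higher in CD8 memory cells (KLRF1, GNLY and NCR3), with a summed level of 378 to 642 CPM in CD8 memory and 30.9 to 195 CPM in CD8 naive libraries. In CD4 memory cells 1 of 7 was higher, GNLY, with a sum of 29.3 to 44.8 CPM in CD4 memory and 1.61 to 6.84 CPM in CD4 naive libraries. NCAM1, which most natural killer cells of macaques lack, lay at 0.0679 to 1.80 CPM in CD8 memory and 0 to 0.252 CPM in CD8 naive libraries, and NCR1 at 0.696 to 2.06 CPM and 0.448 to 1.76 CPM in the same order. Markers of monocytes, which also carry IL15RA, were called in 0 of 7 genes in either lineage. Of 2 gamma-delta T cell markers, TRGC2 was higher in CD8 memory cells (log2 fold change 3.07, SE 0.49, edgeR adjusted p = 0.00313), with a summed level of 10.7 to 34.7 CPM in CD8 memory and 2.21 to 3.99 CPM in CD8 naive libraries. Of 6 B cell markers, BLK was higher (2.36, adjusted p = 0.0445) and CD79A lower (-1.71, adjusted p = 0.00353) in CD8 memory cells, with a sum of 32.8 to 51.6 CPM in CD8 memory and 67.0 to 113 CPM in CD8 naive libraries, and BLK was higher in CD4 memory cells (4.71, adjusted p = 0.00167). Beside these lists, 5.31% of all genes were called higher and 3.1% lower in CD8 memory cells, and 3.89% and 1.71% in CD4 memory cells. The part of other cells in the receptor values was not tested. The subset calls also rested on both draws and on the animal term: with the before libraries alone none of the 5 memory calls held (adjusted p = 0.0502 to 0.276), and without the animal block IL15RA in CD8 cells alone held (0.0321). Without the before libraries of RhDBCb, IL15RA in CD4 cells (0.121) and IL2RG in CD8 cells (0.209) were lost too.

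**Figure D2:**
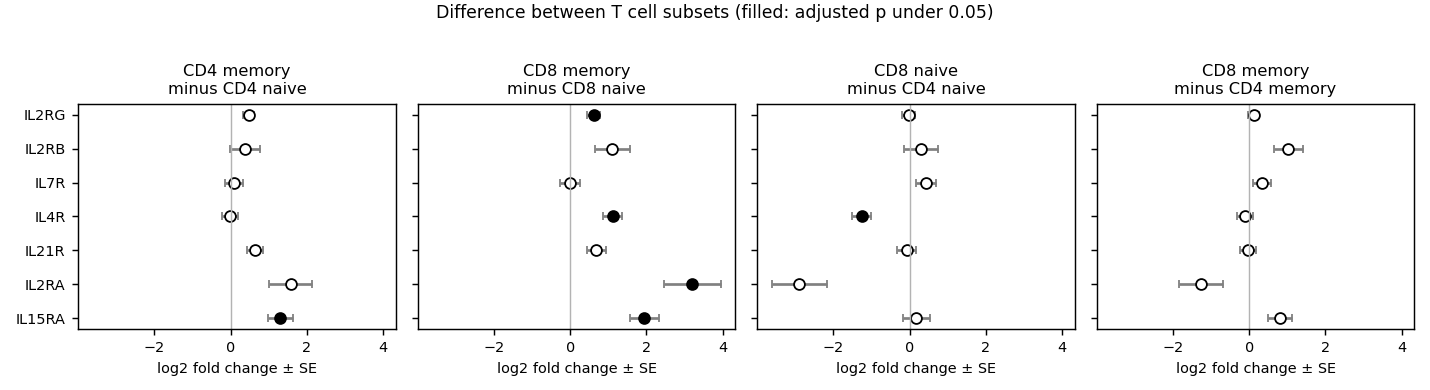
Log2 fold change of each receptor with its SE (edgeR, all 15 libraries) in 4 contrasts between subsets; filled points have an adjusted p under 0.05. IL15RA was higher in memory cells of both lineages, at 1.95 in CD8 and 1.30 in CD4 cells, and IL4R was lower in CD8 naive than in CD4 naive cells, at -1.25.

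CD8 cells were next compared with CD4 cells. In naive cells, IL4R alone of the 7 receptors was called, and it was lower in CD8 cells, where 1.67% of all genes were called in either direction. CD8 naive cells held 386 and 528 CPM in RhM22 after and before treatment and 176 CPM in RhDBCb before, against 857, 1087 and 504 CPM in CD4 naive cells of the same draws. CD8 naive cells held less in 3 of 3 draws, at 0.350 to 0.486 of the CD4 level, with a log2 fold change of -1.25 (SE 0.25, edgeR adjusted p = 0.0250). The call held in 8 of 14 fits without 1 library. It was lost without the CD4 memory before (0.0585), CD8 naive before (0.0817) or CD4 naive after (0.0620) library of RhDBCb, or without the CD4 naive before (0.0950), CD4 memory before (0.0568) or CD4 memory after (0.0538) library of RhM22. It was lost too with the before libraries alone (0.110) and without the animal block (0.771).

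IL2RA followed the same direction between the naive subsets. At 3.50 to 4.95 CPM, the CD8 naive libraries lay below all CD4 naive libraries, at 5.27 to 64.1 CPM. The gap was wide in RhM22 alone, with log2 differences of -3.29 after and -3.68 before treatment. In RhDBCb before treatment it was -0.41, at 3.96 CPM in CD8 naive and 5.27 CPM in CD4 naive cells. The log2 fold change of -2.90 was not called by edgeR (SE 0.72, adjusted p = 0.0828). It was called by DESeq2 (0.00761), with no filter on low counts (0.0357), without the before libraries of RhDBCb (0.00435), without the RhDBCb CD4 naive before library (0.0168) and without either CD8 memory library from before treatment (0.05 for RhDBCb, under the threshold before rounding, and 0.0493 for RhM22).

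Between memory cells of the 2 lineages none of the 7 receptors was called, beside 4.07% of all genes, 2.61% higher and 1.46% lower. At an unadjusted p under 0.05 there were 3 receptors and 2294 genes, and DESeq2 called 1252 genes. IL2RB was higher in CD8 memory than in CD4 memory cells in 4 of 4 draws, by 1.36-fold to 2.89-fold, with CD4 memory cells at 1106 and 1230 CPM in RhM22 after and before treatment and at 545 and 317 CPM in RhDBCb. Its log2 fold change was 1.03 (SE 0.39, edgeR adjusted p = 0.203). IL15RA was higher in CD8 memory cells in 4 of 4 draws and its libraries did not overlap, at 0.81 on the log2 scale (SE 0.32, adjusted p = 0.222). IL2RA was lower in CD8 memory cells in 3 of 4 draws and higher in the before draw of RhDBCb, at 60.8 CPM in CD8 memory and 36.6 CPM in CD4 memory cells. Its log2 fold change was -1.27 (SE 0.57, edgeR adjusted p = 0.317), and -2.22 without the before libraries of RhDBCb (adjusted p = 0.00885).

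In descending order of the mean over libraries, IL2RA lay at 83.6 ± 51.7 CPM in CD4 memory cells, 30.9 ± 20.4 in CD8 memory, 30.0 ± 25.7 in CD4 naive and 4.14 ± 0.745 in CD8 naive cells (SD, n = 4, 4, 4 and 3). The CD8 memory and CD4 naive means differed by less than either SD. IL15RA lay at 12.6 ± 3.03 CPM in CD8 memory, 7.20 ± 1.28 in CD4 memory, 4.19 ± 2.25 in CD8 naive and 2.92 ± 0.868 in CD4 naive cells (SD, same n), and the naive subsets differed by less than the larger SD. IL2RB lay at 1447 ± 422 CPM in CD8 memory, 957 ± 614 in CD8 naive, 800 ± 438 in CD4 memory and 624 ± 457 in CD4 naive cells, and no neighbours in this order differed by more than the larger SD. IL7R means lay between 274 ± 129 CPM in CD4 naive and 380 ± 130 CPM in CD8 naive cells (n = 4 and 3), closer together than the SD. These means pool animals that differ in level, and CD8 naive cells have 2 libraries of RhM22 and 1 of RhDBCb. In the before libraries, with 1 of each animal per subset, IL7R averaged 359 CPM in CD8 memory and 335 CPM in CD8 naive cells, so the order at the top turned, while the orders of IL2RA, IL15RA and IL2RB were as above.

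The next question was what changed over treatment. Across all subsets and both animals, none of the 7 receptors was called, beside 0.00675% of all genes, which is 1 gene. DESeq2 called 177 genes, and 1526 genes had an unadjusted p under 0.05 in edgeR, none of them a receptor. The log2 fold changes lay between -0.64 for IL2RA (SE 0.40, edgeR adjusted p = 0.595) and 0.19 for IL2RB (SE 0.27, adjusted p = 0.840). IL15RA had -0.34 (SE 0.24), IL4R -0.15 (SE 0.13), IL21R 0.18 (SE 0.15), IL7R 0.10 (SE 0.17) and IL2RG 0.04 (SE 0.09). When 1 library was left out, no receptor was called, and IL2RA ranged from -0.85 to -0.25, nearest 0 without the RhDBCb CD8 memory before library, and IL15RA from -0.45 to -0.13, nearest 0 without the RhM22 CD8 naive after library. Without the before libraries of RhDBCb, IL2RB was at -0.44 and IL21R at -0.14, the opposite sign. Within single subsets no gene of the 14814 was called (0%) in naive CD4, memory CD4, naive CD8 or memory CD8 cells, with 603, 230, 148 and 216 genes at an unadjusted p under 0.05 and 9, 0, 0 and 0 called by DESeq2. IL15RA in CD8 naive cells, where only RhM22 has a pair, was the 1 receptor at an unadjusted p under 0.05 (log2 fold change -1.37, SE 0.60, adjusted p = 1). That IL15RA value also used the RhDBCb CD8 naive before library, at 6.53 CPM, which has no after library here. The RhM22 pair itself had a log2 difference of -0.96. No gene was called for a change that differs among the subsets (0%, 71 at an unadjusted p under 0.05, 0 by DESeq2).

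The 7 pairs are described by animal. IL2RA was lower after treatment in 4 of 4 pairs of RhM22, by 0.50 to 0.89 on the log2 scale, as was IL15RA, by 0.24 to 0.96, and IL4R, by 0.02 to 0.45. In RhDBCb IL15RA was higher after treatment in 3 of 3 pairs, by 0.08 to 0.56, and IL4R was lower in 2 of 3, with differences from -0.52 to 0.21, so that IL4R was lower in most pairs of both animals. IL2RA in RhDBCb was higher after treatment in both CD4 subsets, by 1.61 in naive and 0.54 in memory cells, and had a log2 difference of -1.69 in CD8 memory cells, whose before library stood apart. These directions were not called in either animal (edgeR adjusted p = 0.652 to 0.999 for these 3 receptors). The difference between the animals was not called for them either (adjusted p = 0.946 for IL2RA, 0.481 for IL15RA and 0.657 for IL4R).

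**Figure D3:**
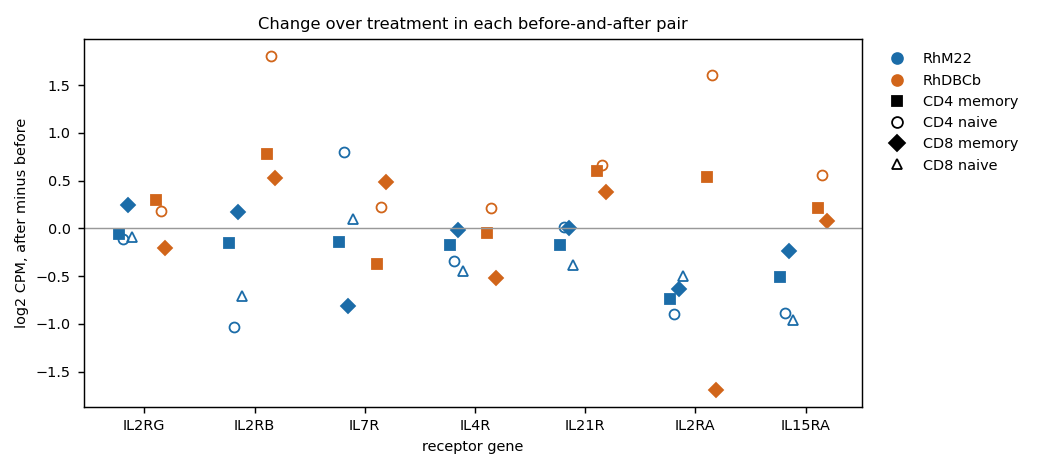
Log2 CPM after minus before treatment for each receptor in each of the 7 pairs, coloured by animal and shaped by subset (filled for memory, open for naive). IL2RB and IL21R lie above 0 in 3 of 3 pairs of RhDBCb, while IL2RB lies below 0 in 3 of 4 pairs of RhM22.

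The change was therefore also taken within each animal, where 1 draw stands for each time. Its p-values measure the spread among the subset libraries of a draw and not between draws. A shift of a whole draw cannot be told apart from a change over treatment. In RhDBCb, 2 of 7 receptors rose, IL2RB and IL21R, beside 5.49% of all genes that were called higher, 4.62% lower and 10.1% in either direction. In RhM22 none of the 7 was called, beside 0.0608% of all genes, with 974 genes at an unadjusted p under 0.05, none of them a receptor, and 243 called by DESeq2. IL2RB in RhDBCb stood at 545 CPM after and 317 CPM before treatment in CD4 memory cells, at 504 and 144 CPM in CD4 naive cells, and at 1321 and 918 CPM in CD8 memory cells. All 3 pairs were higher after treatment, with a log2 fold change of 0.98 (SE 0.27, edgeR adjusted p = 0.0354). In RhM22 it stood at 1106 CPM after and 1230 CPM before treatment in CD4 memory cells, 608 and 1241 CPM in CD4 naive, 1882 and 1670 CPM in CD8 memory and 962 and 1568 CPM in CD8 naive cells. The lowest RhM22 values were thus naive cells after treatment, and the log2 fold change was -0.47 (SE 0.25, edgeR adjusted p = 0.801).

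The change of IL2RB in RhM22 less that in RhDBCb was -1.46 on the log2 scale (edgeR SE 0.37, adjusted p = 0.0394), the 1 receptor of 7 called in this comparison, beside 4.58% of all genes, 1.81% higher and 2.77% lower. The RhDBCb change of IL2RB held in 6 of 15 fits without 1 library. It was lost without the RhDBCb libraries CD4 naive before (0.116), CD4 memory before (0.0916), CD8 naive before (0.0623), CD8 memory after (0.114) or CD4 naive after (0.166), and without the RhM22 libraries CD4 memory before (0.0548), CD8 naive before (0.0605), CD4 naive after (0.0521) or CD8 naive after (0.0521). The difference between the animals held in 3 of 15, those without the CD4 memory after (0.0359) or CD8 memory before (0.00795) library of RhDBCb and without CD8 memory before of RhM22 (0.0153). All of the remaining 12 libraries were needed, with adjusted p up to 0.149 and fold changes from -1.60 to -1.18 without one. DESeq2 kept both calls (adjusted p = 0.00577 and 0.00319).

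IL21R, the chain that binds interleukin 21 from helper T cells, moved in a narrower range. In RhDBCb it stood at 41.4 CPM after and 27.2 CPM before treatment in CD4 memory cells, at 30.3 and 19.2 CPM in CD4 naive cells and at 47.1 and 36.3 CPM in CD8 memory cells. All 3 pairs were higher after treatment, with a log2 fold change of 0.56 (SE 0.16, edgeR adjusted p = 0.0399). In RhM22 it stood at 110 and 124 CPM after and before treatment in CD4 memory, 68.7 and 67.8 CPM in CD4 naive, 91.0 and 90.9 CPM in CD8 memory and 63.1 and 82.5 CPM in CD8 naive cells. The RhM22 libraries lay above all RhDBCb libraries and its pairs went both ways. The call in RhDBCb held in 4 of 15 fits, those without the CD4 memory after (0.0379) or CD8 memory before (0.00860) library of RhDBCb and without CD8 memory before (0.0398) or after (0.0401) of RhM22. It was lost without each of the others, with an adjusted p of at most 0.175. The difference between the animals was -0.71 (SE 0.21, edgeR adjusted p = 0.0783), which DESeq2 called (0.0285) and edgeR called without the RhDBCb CD8 memory before library (0.0174).

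The animals already differed before treatment. Here 1 draw stands for each animal, and p-values again measure the spread among the libraries of a draw. RhM22 was higher than RhDBCb in 4 of 7 receptors and lower in none, beside 19.4% of all genes called higher, 18.3% lower and 37.6% in either direction. IL2RB had a log2 difference of 2.03 (SE 0.26, edgeR adjusted p = 7.08e-05) and IL21R by 1.86 (SE 0.15, adjusted p = 2.74e-06). The before libraries of IL21R lay at 67.8 to 124 CPM in RhM22 and 19.2 to 36.3 CPM in RhDBCb, and those of IL2RB at 1230 to 1670 and 144 to 918 CPM, with no overlap in either gene. IL4R was higher by 0.90 (SE 0.18, edgeR adjusted p = 0.00142), at 528 to 1087 CPM in RhM22 and 176 to 689 CPM in RhDBCb, and IL7R by 0.79 (SE 0.23, adjusted p = 0.0171), at 264 to 454 CPM in RhM22 and 173 to 265 CPM in RhDBCb, both with ranges that overlap. Fits without 1 library kept 3 of these calls in 15 of 15. That of IL7R was lost without the RhDBCb CD8 naive before library (0.0541) or the RhM22 CD4 memory before library (0.0656). IL2RG averaged 825 ± 159 CPM in RhM22 and 853 ± 200 CPM in RhDBCb before treatment (SD over subsets, n = 4 each), less than 1 SD apart. IL2RA and IL15RA did not pass the test (adjusted p = 0.265 and 0.695).

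Marker levels of other blood cells were set beside the same draws. Platelet markers rose in RhDBCb in 3 of 8 tested genes, beside 5.49% of all genes called higher. Their summed level was 14.1 to 27.9 CPM after and 3.33 to 5.23 CPM before treatment. In RhM22 none was called and the sum was 29.5 to 99.7 CPM after and 22.2 to 59.7 CPM before. Before treatment 6 of 8 platelet markers were higher in RhM22 than in RhDBCb, and GP9 was at 0 in all 4 RhDBCb libraries. Of 7 monocyte and dendritic cell markers 2 were higher too, beside 19.4% of all genes. The monocyte sum in RhDBCb was 9.24 to 35.9 CPM after and 3.66 to 11.5 CPM before treatment. Genes with at least 10 counts numbered 12329 to 12425 after and 11506 to 12277 before treatment in RhDBCb, and 12363 to 12577 after and 12043 to 12565 before in RhM22. The part of these in the receptor values was not tested.

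The rest of the pathway was followed through genes listed by role. The ligands were scarce in T cells: the summed CPM of 6 family cytokines lay between 0.438 and 5.99 in every library, and IL9 reached at most 0.0295 CPM. IL7, which stromal cells usually supply to T cells, was 1 of 5 tested cytokines called between subsets. It was higher in CD4 memory than in CD4 naive cells, at 1.61 to 4.42 CPM and 0.0233 to 0.530 CPM (edgeR adjusted p = 0.0111, lost without the RhDBCb CD4 naive after library, 0.0584). No cytokine was called over treatment in either animal. Among 3 partner receptors, CRLF2, which joins IL7R in the receptor for thymic stromal lymphopoietin, was higher in memory cells of both lineages. It lay at 2.11 to 11.0 CPM in CD8 memory and 0 to 0.172 CPM in CD8 naive cells (edgeR adjusted p = 0.00804), and at 2.73 to 10.4 CPM in CD4 memory and 0.102 to 1.65 CPM in CD4 naive cells (adjusted p = 0.0192). The CD8 call held in 14 of 14 fits without 1 library. The CD4 call was lost without the CD4 memory before (0.0519), CD4 naive after (0.0540) or CD4 memory after (0.0729) library of RhDBCb, or the CD4 naive before (0.0631) or CD4 naive after (0.0858) library of RhM22. IL9R, the interleukin 9 chain, was higher in CD8 memory cells, at 1.46 to 3.22 CPM, than in CD8 naive cells, at 0 to 0.101 CPM (adjusted p = 0.0445), a call lost without any CD8 memory library, any CD4 library after treatment or the RhDBCb CD8 naive before library (0.0510 to 0.0927).

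Of 7 kinases and STAT factors, 5 rose in RhDBCb and none fell, beside 5.49% of all genes called higher and 4.62% lower. On the log2 scale, STAT3 rose by 0.75 (SE 0.14, edgeR adjusted p = 0.00739), STAT6, which carries the interleukin 4 signal, by 0.70 (SE 0.14, adjusted p = 0.00930) and STAT5A, which carries those of interleukins 2, 7 and 15, by 0.83 (SE 0.17, adjusted p = 0.0106). Each of these was lost without the RhDBCb CD4 naive after library (0.0684, 0.0840 and 0.0828). In RhM22 1 of 7 fell, beside 0.0608% of all genes called lower: STAT3, by 0.90 (edgeR adjusted p = 0.0269). This call was lost without any before library of RhM22 (0.0719 to 0.168) or without its CD4 naive (0.247), CD4 memory (0.120) or CD8 naive (0.322) after library. The changes of STAT3 and STAT5A differed between the animals in 15 of 15 such fits, by -1.64 and -1.49, RhM22 less RhDBCb (adjusted p = 0.00109 and 0.00541). Before treatment all 7 were higher in RhM22, beside 19.4% of all genes called higher and 18.3% lower. STAT3 then lay at 801 to 1631 CPM in RhM22 and 268 to 461 CPM in RhDBCb. Over all subsets and both animals together 0 of 7 were called.

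CISH, a feedback inhibitor that STAT5 switches on, moved furthest of 6 listed inhibitors. It lay at 52.9 to 86.5 CPM in RhDBCb after and 5.82 to 13.8 CPM before treatment, a rise of 2.93 on the log2 scale (edgeR SE 0.35, adjusted p = 0.000688) that held in 15 of 15 fits without 1 library. In RhM22 it lay at 138 to 275 CPM after and 125 to 286 CPM before, which overlap. The change in RhM22 less that in RhDBCb was -2.59 (SE 0.46, adjusted p = 0.00996), lost without the RhM22 CD8 naive before library (0.0522). SOCS3 rose in RhDBCb by 0.89 (SE 0.18, edgeR adjusted p = 0.00952) and SOCS2 by 0.88 (SE 0.24, adjusted p = 0.0367). The SOCS2 call was lost without the CD8 naive before (0.0595), CD8 memory before (0.0747), CD8 memory after (0.0695) or CD4 naive after (0.220) library of RhDBCb, or the CD8 naive before (0.0543) or after (0.0516) library of RhM22. Before treatment CISH, SOCS3 and SOCS2 were already higher in RhM22 than in RhDBCb, by 4.25, 2.18 and 1.27 on the log2 scale (edgeR adjusted p = 3.42e-06, 2.52e-06 and 0.000809). PTPN6, a phosphatase, was the 1 inhibitor lower in RhM22 then, by a log2 fold change of -0.72 (adjusted p = 0.00128). Beside these, 19.4% of all genes were called higher in RhM22 and 18.3% lower.

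**Figure D4:**
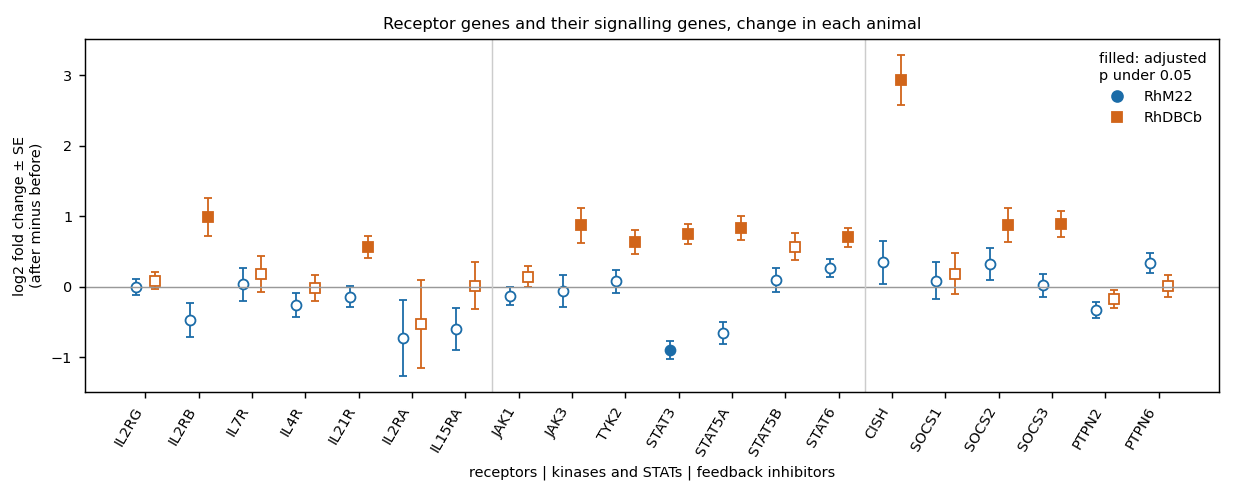
Log2 fold change after minus before treatment with its SE (edgeR) in RhM22 (circles) and RhDBCb (squares) for the receptors, the kinases and STAT factors, and the feedback inhibitors; filled symbols have an adjusted p under 0.05. CISH in RhDBCb stands highest at 2.93, and STAT3 in RhM22 lowest at -0.90.

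Of 5 genes downstream of STAT5 that serve survival and growth, 0 were called over treatment in either animal. Over all genes the shares were 10.1% in RhDBCb and 0.0608% in RhM22. Between memory and naive cells 2 were called in the CD8 lineage and 1 in the CD4 lineage, beside 8.4% and 5.6% of all genes. BCL2, which blocks cell death, was lower in memory cells of both lineages, at 18.5 to 36.9 CPM in CD8 memory and 81.1 to 117 CPM in CD8 naive cells, and at 52.4 to 70.8 CPM in CD4 memory and 86.6 to 127 CPM in CD4 naive cells. The log2 fold changes were -1.87 (SE 0.22, edgeR adjusted p = 0.000560) and -0.86 (SE 0.20, adjusted p = 0.0248). The CD8 call held in 14 of 14 fits without 1 library, and the CD4 call was lost without any CD4 library other than CD4 memory before of RhDBCb and CD4 naive before of RhM22 (0.0586 to 0.129). BCL2L1, a relative of BCL2, was higher in CD8 memory cells by 1.11 (SE 0.27, adjusted p = 0.0274), a call lost without the CD8 naive before (0.100) or CD8 memory before (0.0636) library of RhDBCb, and without CD8 memory before (0.0544) or after (0.0857) of RhM22. Of 9 transcription factors known to control IL7R or IL2RB, TBX21, EOMES and RUNX3 were higher and FOXP1 lower in memory cells of both lineages. GFI1, named here after its value was seen, was higher in CD8 memory cells. Beside this list, 5.31% of all genes were called higher and 3.1% lower in CD8 memory cells, and 3.89% and 1.71% in CD4 memory cells. The calls of TBX21 and EOMES held in all fits without 1 library. In CD4 cells RUNX3 was lost without the RhDBCb CD4 naive before library (0.0516) and FOXP1 without any CD4 library other than CD4 naive before of RhM22 (0.0668 to 0.164). In CD8 cells FOXP1 was lost without the CD8 memory before (0.0526) or after (0.0524) library of RhM22. EOMES, which switches on IL2RB in mice, lay at 62.8 to 189 CPM in CD8 memory, 16.5 to 30.8 CPM in CD8 naive, 11.4 to 27.5 CPM in CD4 memory and 1.07 to 2.50 CPM in CD4 naive cells. SOCS2 was lower in CD8 than in CD4 cells, by a log2 fold change of -2.10 in naive and -2.47 in memory cells (edgeR adjusted p = 0.00937 and 0.000662), and held in all such fits.

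The receptors' own likeness across the 15 libraries is given as a description, since libraries share an animal and a draw. IL2RG was most like IL15RA (Pearson r of log2 CPM 0.863) and IL2RB most like IL21R (0.847), while IL7R and IL15RA were unrelated (-0.041). All r values here pool both animals. IL2RB and IL21R were both higher in RhM22 before treatment, by 2.03 and 1.86 on the log2 scale. The part of the difference between animals in the r values was not tested. IL4R and IL21R, which neighbour each other in the RefSeq gene table of that other assembly, had an r of 0.662. IL2RA and IL15RA, also neighbours there, had 0.377. Among 8289 other genes with a mean of at least 5 CPM, the closest to IL2RG were TCIRG1 (0.951), NCLN (0.950) and ZBP1 (0.947). Those closest to IL2RB were CIZ1, HYOU1 and PPP6R1 (0.953 to 0.954), to IL7R PRPF4B, STK17B and CACUL1 (0.949 to 0.957), and to IL21R RHOF, TFE3 and SAMD4B (0.961 to 0.973). IL4R was followed by OXCT1 (0.935), DCK (0.918) and ICOS (0.908), a co-stimulator of T cells. IL2RA was followed by TNFAIP2, UPP1 and SLC39A8 (0.900 to 0.910), and IL15RA by STX11 and OPTN (both 0.953).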

How the data were processed

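RNA-seq values of 15 libraries of sorted blood T cells from 2 rhesus macaques were analysed. Each value is an RSEM expected count per gene as deposited by the authors. The FPKM values deposited by the authors were read only to check their length scale, which followed the genomic span of a gene including introns, so levels were not compared between genes. The submitters' processing notes name the tools RSEM 1.3.3, STAR 2.7.6a and cutadapt 1.18, and the builds Mmul_10 and rheMac10. RNA was made into cDNA with a SMART-Seq v4 kit, which does not mark strand, per the labels' protocols. How the subsets were separated is not given in the sources used here.

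Expected counts were rounded, scaled by TMM and tested with edgeR 4.0.16 (quasi-likelihood F test, R 4.3.3). The 14814 genes tested passed the edgeR filter at a minimum count of 10, scaled to library size. The filter asks for this level in any libraries, as many as the smallest group holds, which is 1. Benjamini-Hochberg adjustment ran over all genes tested, with a threshold of 0.05. Treatment over all subsets was fitted with subset, animal and time; subset contrasts and treatment in single subsets with 8 subset-by-time groups and animal; changes within an animal with subset and animal by time. Each SE is the absolute log2 fold change over the root of its F value. Log2 CPM used a prior count of 2. Animal was the replicate block because same-animal libraries share a donor, and the deviations of same-animal libraries correlated at 0.195 to 0.501 over 21 pairs of groups. Alternatives were DESeq2 1.42.0, median-ratio scaling, no filter on low counts, no block, an animal-by-time term, before libraries only, and leaving out single libraries or the before libraries of RhDBCb. Scripts were checked on simulated counts drawn without the differences between animals in these data, so that check covers the code and not such differences.

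The members and gene lists were chosen with earlier results of these data known. Named in the text are all 7 receptors, at most 3 called genes per list and direction with the smallest p, and the 3 genes closest to each receptor by Pearson r among those with a mean of at least 5 CPM. Some genes are not reported here.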

Additional observations from a re-analysis of the deposited data

Results flagged for a closer look

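IL2RB was set apart because its change over treatment differed between the animals by a test of the difference itself. The change in RhM22 less that in RhDBCb was -1.46 on the log2 scale (edgeR adjusted p = 0.0394), with IL2RB higher after treatment in 1 of 4 pairs of RhM22 and in 3 of 3 pairs of RhDBCb. The call held in 3 of 15 fits that left out 1 library. Before treatment IL2RB was already higher in RhM22 than in RhDBCb, by 2.03 on the log2 scale (adjusted p = 7.08e-05). Platelet markers differed in the same direction, with 6 of 8 higher in RhM22, beside 19.4% of all genes called higher and 18.3% lower. So did all 7 listed kinases and STAT factors. The part of these in the difference between the changes was not tested, and each animal is 1 individual.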

How the results depend on the processing

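With 2 animals and 1 draw per animal and time, no result here extends beyond these libraries, and CD8 naive cells have a pair in RhM22 alone. The checks covered 32 receptor results: those of the 7 receptors for treatment over all subsets, and every other one at an unadjusted p under 0.05. This set was picked by p in these same data, so the counts below hold for it alone. Of these 32, 13 were called. Median-ratio scaling changed none of the 32 calls. DESeq2 lost none and added 4, no filter on low counts lost 1 and added 1, and no replicate block lost 5 of 24. Before libraries alone lost 6 of 16. Without the before libraries of RhDBCb, 3 of 24 were lost and 3 were added, and the treatment value over all subsets turned to -0.00 for IL2RG (-0.0022), -0.44 for IL2RB and -0.14 for IL21R. IL7R ranged from -0.04 to 0.21 (-0.038 to 0.2111) when 1 library was left out, below 0 without that of RhDBCb CD8 memory cells after treatment. Of 470 results without 1 library, 60 lost and 5 gained a call. The cause of these shifts was not tested.

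DESeq2 called 177 genes for treatment over all subsets, 9 for treatment in CD4 naive cells, 1648 for CD4 memory minus naive, 2245 for CD8 memory minus naive, 562 for CD8 minus CD4 naive, 1252 for CD8 minus CD4 memory and 82 for the lineage difference of memory and naive. It called 2538 for the change in RhDBCb, 243 for that in RhM22 and 1667 for their difference. Without the replicate block, the counts in the same order were 0 for treatment, then 238, 427, 102 and 179 for the subset contrasts and 0 for the lineage difference. An animal-by-time term gave 200 genes for treatment. Without the before libraries of RhDBCb there were 11 for treatment, 496 for CD4 and 760 for CD8 memory minus naive, 372 for CD8 minus CD4 memory and 0 for the lineage difference. Before libraries alone gave 165, 484, 120, 143 and 0 for the 4 subset contrasts and the lineage difference.

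Leaving out 1 library gave 0 to 3 genes for treatment, 427 to 896 for CD4 and 758 to 1208 for CD8 memory minus naive, 171 to 313 for CD8 minus CD4 naive, 301 to 610 for CD8 minus CD4 memory and 0 to 2 for the lineage difference. It gave 225 to 2188 for the change in RhDBCb, 0 to 12 for that in RhM22, 99 to 1314 for their difference and 4322 to 5733 for the animals before treatment.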
